A study of Mus musculus with 7 samples.

Results

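Integrins are the receptors that hold cells to extracellular matrix and to other cells, and the genes described here encode their subunits together with the adaptor proteins that tie the cytoplasmic tails of integrins to actin. The members were all genes whose only symbol in the probe annotation begins with Itga or Itgb, plus a fixed list of 20 named adaptors, kinases and LIM-domain proteins. They came to 47 of the 18193 genes on the array with a single symbol, 29 of them through the Itga and Itgb symbols and 18 through the named list. Fermt1 and Ptk2, the other names in the list, are not analysed here. The rule itself used no measured value, but it was chosen with earlier results of these data known. The 47 genes comprise 16 alpha subunits, 9 beta subunits, 4 integrin-binding or integrin-like proteins, 4 talins and kindlins, 6 components of the complex of ILK, PINCH and parvin, 6 actin linkers and LIM adaptors, and 2 members that signal, Ptk2b and Bcar1.

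RNA came from sorted bone marrow cells of wild-type mice of the C57Bl/6J strain, 6 to 12 weeks old, and 1800 to 10000 cells were used per preparation. Both gates excluded cells with CD45 and lineage antigens. Cells positive for CD54 and BP1 and negative for CD31 gave 4 arrays, which carry the label stromal cells (stromal 1 to 4), and cells negative for CD54 and positive for CD31 gave 3 arrays, which carry the label endothelial cells (endothelial 1 to 3). The labels do not say whether the arrays of a group came from separate mice or sorts, so a p-value measures only the spread between these arrays, which may be technical. Whether cells of each gate were pooled from several mice is not stated either.

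An integrin is a pair of 1 alpha and 1 beta subunit, and the pair decides which ligand is bound. Talin and kindlin bind the tail of the beta subunit and switch the receptor to its high-affinity state, a step known as inside-out activation. Bound integrins then gather a plaque in which ILK, PINCH and parvin, vinculin, zyxin, paxillin, tensins and focal adhesion kinases link the receptor to actin and to signalling. In bone marrow, integrins of blood cells are known for retention in the niche and for platelet aggregation, and those of stromal cells for anchorage to matrix.

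Values are log2 expression values summarised per probe set, and a difference is the stromal mean minus the endothelial mean on that scale. A fold is given only where both means lay above their arrays' 40th percentile, taken here as the low end of the scale, and levels of different probe sets were not compared with each other. A gene was called where limma's adjusted p was under 0.05 and the difference was at least 1 in either direction. The array medians lay between 6.00 and 6.19, the 40th percentiles between 5.48 and 5.79 and the highest values between 14.68 and 14.82. The mean of the spiked hybridisation controls was 11.33 on endothelial 2 and 11.37 on endothelial 3, above the 9.51 to 9.75 of the other arrays. Precision is limited by there being only 4 and 3 arrays.

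The labels were checked against lists of marker genes. The 11 reticular stroma markers averaged 12.91 to 13.09 on stromal 1 to 4 and 5.29 to 6.53 on endothelial 1 to 3. The 14 endothelial markers averaged 6.92 to 7.18 on endothelial 1 to 3 against 5.65 to 5.81 in stroma, but Cdh5, Emcn, Tek and Tie1, which define endothelium, did not pass the filter on low values. The 10 megakaryocyte and platelet markers averaged 13.24 to 13.69 on endothelial 1 to 3 against 5.66 to 8.11 in stroma, and all 10 were called in that direction. The 11 pan-leukocyte markers averaged 9.73 to 10.68 against 6.13 to 7.67, although both gates excluded CD45. The neutrophil precursor list averaged 9.26 to 12.25 against 7.62 to 9.75, the erythroid list 7.08 to 8.32 against 5.61 to 7.09, the monocyte and macrophage list 6.76 to 7.38 against 5.62 to 6.23, and the T and NK list 6.49 to 7.19 against 5.32 to 5.60. Of the 10 endothelial markers that were tested 4 were called higher on the arrays labelled endothelial, among them Pecam1, and 6 were not called. Over all genes tested 16.1% were called in that direction. Eng, also on the list, was higher on every stromal array than on any endothelial array (difference 0.93), under the size required for a call. Pecam1 encodes the CD31 of the gates, and Enpep, on the reticular list, encodes the BP1 of the stromal gate. Neither is independent of the sort. In a sorted bulk sample, fewer cells of a type and less RNA per cell cannot be told apart. The part of these other cells in the differences below was not tested.

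Of the 47 members 40 passed the filter on low values, and 29 of the 40 were called. The calls went both ways, 9 toward stroma and 20 toward the endothelial side, while 11 members were not called. Among all 13995 genes tested, 47.0% were called, 30.9% toward stroma and 16.1% toward the endothelial side. Under a second quantile normalization 44.6% were called, 23.2% and 21.4% in the same order, and under cyclic loess 40.4%, as 23.4% and 17.1%. All 29 member calls were shared with both of those scalings. The median difference of the tested members was -1.24, against 0.19 over all genes tested, and without the filter it was -0.64 for the 47 members and -0.27 for all 18193 genes. In 33 of the 40 members the groups did not overlap, 9 with the stromal arrays above and 24 with the endothelial arrays above. The same held for 68.4% of all genes tested, 35.7% and 32.7% in the respective directions, so the share without overlap was high across the array as a whole.

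**Figure D1:**
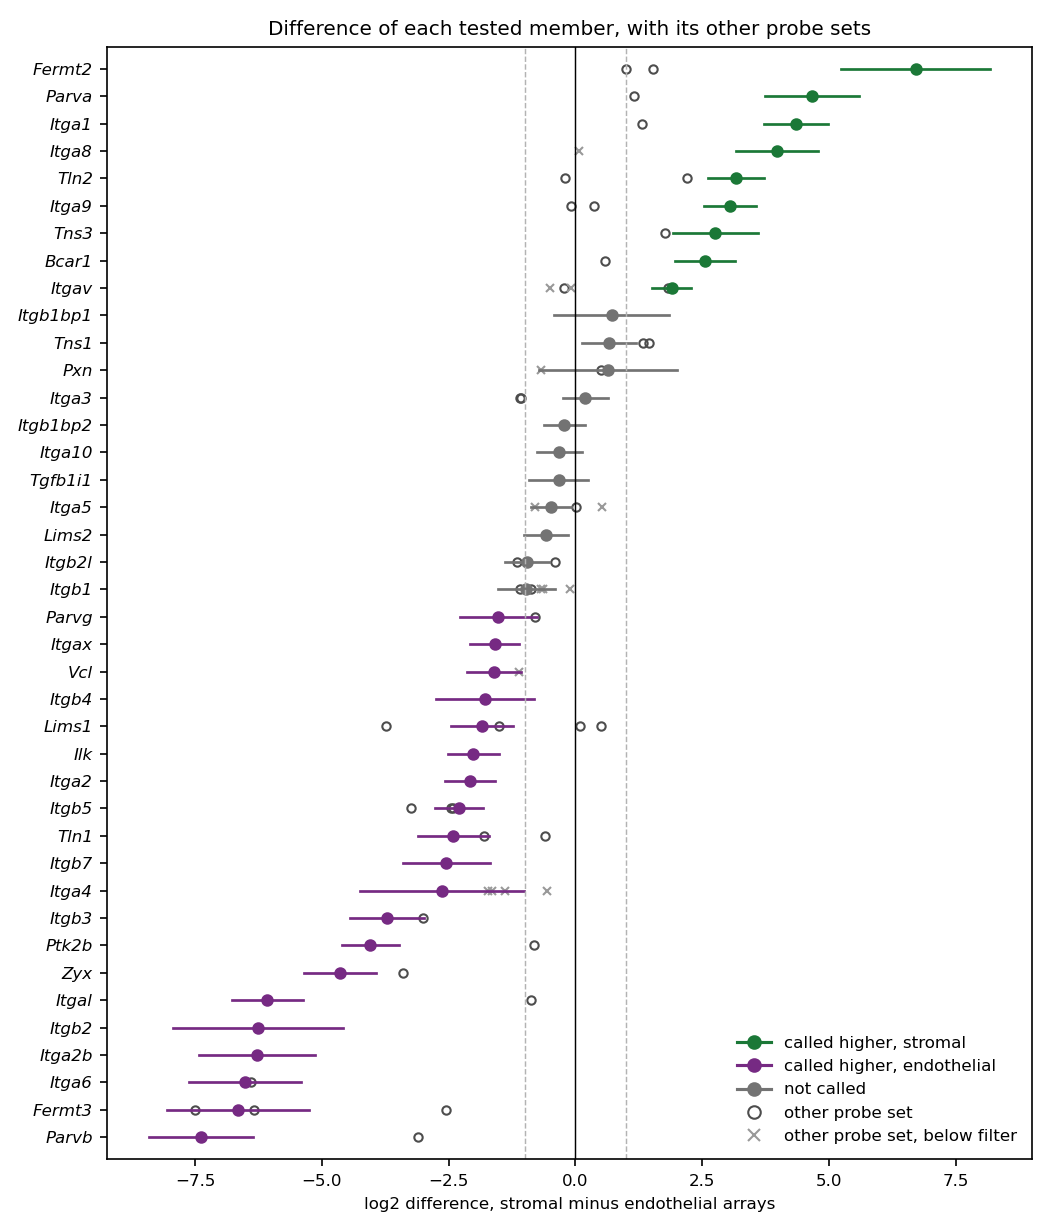
The log2 difference, stromal minus endothelial, is plotted for each of the 40 tested members on the horizontal axis, ordered by that difference. A filled point marks the probe set used, with the 95% confidence interval from limma as a line. Open circles mark other probe sets of the gene, and crosses those below the filter. The filled points run from Parvb at -7.39 to Fermt2 at 6.71, and 9 called members lie to the stromal side and 20 to the endothelial side.

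The promoters of 5 members with large differences are shown because they name the loci and mark how unlike the sequences at those starts are. They are the 250 bases before the annotated gene start, from RefSeq on mouse build GRCm38.p6, printed 5′ to 3′ along the gene's strand, with every CG dinucleotide in capitals. Parvb, Fermt3 and Itga2b were higher in the endothelial group, and Fermt2 and Itga1 in stroma.
Parvb, chr15:84231793-84232042, plus strand: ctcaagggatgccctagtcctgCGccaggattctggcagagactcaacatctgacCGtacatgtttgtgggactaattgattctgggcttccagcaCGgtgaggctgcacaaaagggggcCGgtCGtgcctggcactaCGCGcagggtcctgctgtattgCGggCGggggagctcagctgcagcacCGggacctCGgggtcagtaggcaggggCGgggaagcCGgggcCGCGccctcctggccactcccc
Fermt3, chr19:7019470-7019719, minus strand: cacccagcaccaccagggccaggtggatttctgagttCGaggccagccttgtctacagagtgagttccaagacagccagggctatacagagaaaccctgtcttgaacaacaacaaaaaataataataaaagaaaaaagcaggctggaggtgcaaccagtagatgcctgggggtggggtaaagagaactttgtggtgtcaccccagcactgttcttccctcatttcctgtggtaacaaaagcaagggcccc
Itga2b, chr11:102469884-102470133, minus strand: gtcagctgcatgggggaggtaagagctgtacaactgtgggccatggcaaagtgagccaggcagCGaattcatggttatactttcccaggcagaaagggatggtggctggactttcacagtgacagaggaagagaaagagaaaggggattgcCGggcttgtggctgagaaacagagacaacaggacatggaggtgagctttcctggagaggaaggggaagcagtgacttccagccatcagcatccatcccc
Fermt2, chr14:45530066-45530315, minus strand: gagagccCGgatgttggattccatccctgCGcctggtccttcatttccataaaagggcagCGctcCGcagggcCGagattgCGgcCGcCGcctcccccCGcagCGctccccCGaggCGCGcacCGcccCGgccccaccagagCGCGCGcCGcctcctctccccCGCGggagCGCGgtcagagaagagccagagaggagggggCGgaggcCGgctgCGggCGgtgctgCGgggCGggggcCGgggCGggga
Itga1, chr13:115101965-115102214, minus strand: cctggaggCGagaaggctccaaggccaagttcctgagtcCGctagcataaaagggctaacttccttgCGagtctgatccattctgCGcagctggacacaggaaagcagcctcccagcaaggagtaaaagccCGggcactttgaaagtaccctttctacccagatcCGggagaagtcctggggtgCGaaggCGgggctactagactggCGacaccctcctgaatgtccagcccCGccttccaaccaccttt

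The window before Fermt2 held 31 CG dinucleotides, with 76.0% G or C, and that before its paralog Fermt3 held 1. Parvb had 15, Itga1 10 and Itga2b 2 CG dinucleotides. Over the 32851 windows of this length the median was 6, and over the 40 windows of the 33 members that matched the table by symbol it was 12. The 8 windows of 7 members called toward stroma had a median of 19.5, and the 18 windows of 14 members called the other way had a median of 11.0. The letters AGATAA, which GATA factors recognise, were in 3 of the 40 member windows (7.50%) and in 9.99% of all windows, searched on both strands. The letters GGAAGT, which ETS factors recognise, were in 11 of the 40 (27.5%) and in 19.7% of all windows. Among the 5 printed windows GGAAGT was found on the opposite strand of Itga2b, starting 26 bases before the gene start, and of Itga1, 192 bases before it, while AGATAA was found in none. A match is only a match of letters, and windows of 1 gene can share sequence.

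Alpha subunits divided between the populations. Of 16 genes 13 were tested, of which 4 were called toward stroma, 6 toward the endothelial side and 3 neither. Over all genes tested 30.9% were called toward stroma and 16.1% toward the endothelial side. Those higher in stroma were Itga1, Itga8, Itga9 and Itgav. Itga1 and Itga8 encode partners of the beta-1 chain that bind collagen and laminin, and nephronectin, respectively. Itga9 encodes a receptor chain for tenascin-C and osteopontin, and Itgav the alpha-V chain of vitronectin receptors.

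Itga1 stood at 10.65, 10.52, 10.30 and 9.68 on stromal 1 to 4 and at 5.77, 6.29 and 5.76 on endothelial 1 to 3. All 4 stromal arrays lay above every endothelial array, by a 20.4-fold difference of the means (difference 4.35, SE 0.27, limma adjusted p = 4.83e-06), and both of its probe sets were called in this direction. Itga8 was at 9.85, 9.75, 8.92 and 10.53 against 5.98, 5.85 and 5.53. Its difference was 3.97 (SE 0.35, limma adjusted p = 3.39e-05), a 15.7-fold difference, with stromal 4 the highest and stromal 3 the lowest of its group. Itgav, expressed in both populations, was at 12.05, 12.08, 12.17 and 11.91 against 10.14, 10.02 and 10.32. The groups did not overlap and the fold was 3.72 (limma adjusted p = 3.39e-05), but of its 3 tested probe sets 2 were called, and the mean over probe sets gave a difference of 0.58, under the size required for a call. Itga9 was at 8.34, 8.88, 8.79 and 8.33 against 5.27, 5.82 and 5.51, a difference of 3.05 (limma adjusted p = 1.26e-05). Only the probe set used here carried that call for Itga9. With probe sets of the cross-hybridising suffixes left out, Itga9 differed by 0.37 (adjusted p = 0.105), so its call depends on the probe set.

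The 6 alpha subunits called toward the endothelial side were Itga6, Itga2b, Itgal, Itga4, Itga2 and Itgax. Itga2b encodes the alpha-IIb chain of the platelet fibrinogen receptor, Itga6 a laminin receptor chain of platelets, endothelium and epithelium, and Itgal the alpha-L chain of the leukocyte integrin LFA-1. Itga2b was at 14.34, 14.46 and 14.49 on endothelial 1 to 3 against 8.23, 7.42, 7.38 and 9.56 on stromal 1 to 4. The fold was 77.7 (difference -6.28, SE 0.50, limma adjusted p = 1.82e-05), but the endothelial values were close to the top of the array's range, which limits the size of this fold. Itga6 was at 13.89, 13.40 and 13.51 against 6.17, 7.30, 6.52 and 8.35, a 91.5-fold difference (-6.52, SE 0.48, limma adjusted p = 1.24e-05). For both genes stromal 4 was the highest stromal array, but every stromal array lay below every endothelial one.

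Itgal was at 12.86, 12.42 and 12.34 against 6.49, 7.02, 5.78 and 6.58, a 67.4-fold difference (limma adjusted p = 1.36e-06). Its second probe set differed by -0.87 and was not called. Itga4, the alpha-4 chain that binds VCAM-1 and fibronectin, was at 8.55, 10.73 and 7.56 on the endothelial arrays against 6.80, 6.55, 5.36 and 6.57. Endothelial 2 carried the highest Itga4 value by a wide margin. The groups did not overlap (difference -2.63, SE 0.70, limma adjusted p = 0.0108), but without endothelial 2 the difference shrank to -1.74, and with the level of hybridisation controls as a blocking term, which leaves endothelial 1 alone against the stromal arrays, the call was lost (-2.24, adjusted p = 0.123). Itga2, a collagen receptor chain of platelets, and Itgax, the alpha-X chain of myeloid cells, were 4.22-fold and 3.01-fold higher on the endothelial arrays (limma adjusted p = 8.60e-05 and 3.33e-04), from stromal values near the 40th percentile.

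Itga3, Itga5 and Itga10 were not called, with differences of 0.20, -0.48 and -0.32. The stromal and endothelial means of Itga5 (5.57 and 6.05) and Itga10 (5.78 and 6.10) lay close to the 40th percentile. For Itga5 the groups did not overlap (limma adjusted p = 0.0354), while its other tested probe set differed by 0.0029. The 95% interval ran from -0.24 to 0.64 for Itga3, from -0.88 to -0.09 for Itga5 and from -0.76 to 0.13 for Itga10. For Itga3 the probe sets disagreed: the 2 others were called higher on the endothelial arrays, by -1.08 and -1.06. Itga7, Itgae and Itgam had means below the 40th percentile in both groups, with stromal means of 4.80, 4.66 and 4.14 and endothelial means of 5.28, 5.69 and 4.67, and were not tested. Itgam encodes the alpha-M chain of macrophages and neutrophils, the usual partner of Itgb2 in those cells.

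**Figure D2:**
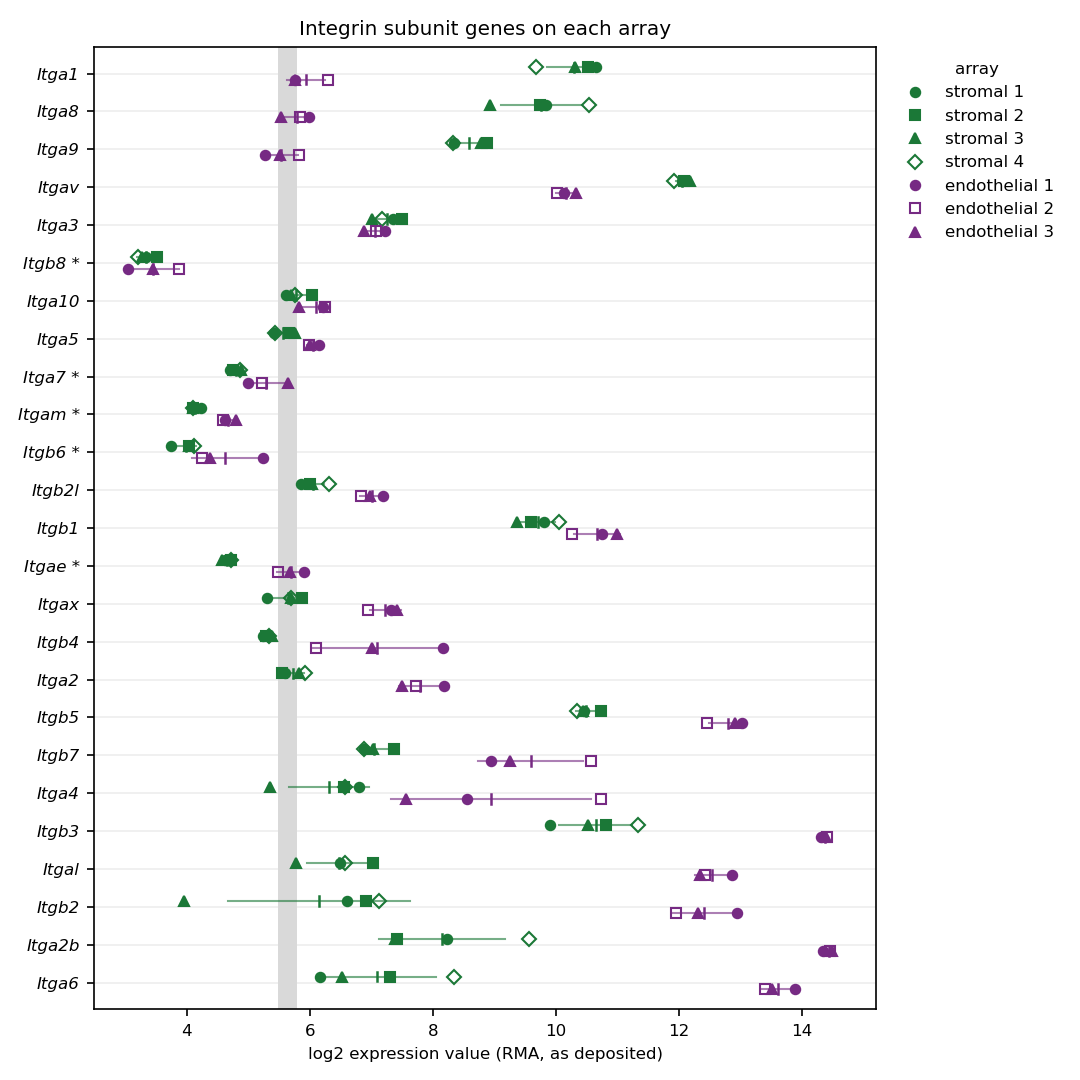
Log2 expression values are plotted on the horizontal axis for each alpha and beta subunit gene, with 1 symbol per array, a tick at each group mean and a line of 1 SD to either side. Open symbols mark stromal 4 and endothelial 2, the grey band spans the 40th percentiles of the arrays, and an asterisk marks genes that were not tested. Itga2b and Itgb3 lie above 14 on the endothelial arrays, while Itga1 and Itga8 stand apart toward the stromal side.

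No beta subunit was called higher on the stromal arrays. Of 9 beta genes 7 were tested, and 5 were called higher on the endothelial arrays: Itgb2, Itgb3, Itgb7, Itgb5 and Itgb4. No beta subunit had an unadjusted p under 0.05 toward stroma by limma either. In all 7 every endothelial array lay above every stromal array. Of all genes tested 32.7% had the endothelial arrays above in this way, and 16.1% were called higher on them. Itgb2 encodes the common beta chain of leukocyte integrins and Itgb3 the beta chain that pairs with alpha-IIb on platelets and with alpha-V elsewhere.

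Itgb2 was at 12.94, 11.96 and 12.31 on endothelial 1 to 3 against 6.60, 6.91, 3.95 and 7.12 in stroma. The fold was 76.4 (difference -6.26, SE 0.73, limma adjusted p = 1.71e-04). Stromal 3 was far below its group, and without it the difference was -5.52, still called. Itgb3 was at 14.31, 14.41 and 14.39 against 9.91, 10.81, 10.52 and 11.34, a 13.2-fold difference (-3.72, SE 0.32, limma adjusted p = 2.64e-05). Unlike Itgb2, Itgb3 was well above the low end of the scale on the stromal arrays too, but only on this probe set. Its other probe set was at 5.90, 6.29, 6.23 and 6.17 on stromal 1 to 4, closer to the low end. Both probe sets of Itgb3 were called in the same direction. Itgb5, a partner of alpha-V, was 4.92-fold higher (12.79 ± 0.30, SD, n = 3, against 10.50 ± 0.17, n = 4, limma adjusted p = 3.46e-05), and all 4 of its probe sets were called that way. The alpha chain Itgav thus lay higher in stroma, and the beta chains Itgb3 and Itgb5 that can pair with it lay higher in the endothelial group.

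Itgb7, which pairs with alpha-4 in lymphocytes, was at 8.94, 10.56 and 9.25 on the endothelial arrays against 6.87, 7.36, 7.03 and 6.88. Endothelial 2 was the highest array for Itgb7, as it was for Itga4. The fold of Itgb7 was 5.86 (limma adjusted p = 6.20e-04). Itgb4, the laminin receptor chain of epithelia, was at 8.16, 6.11 and 7.0 against stromal values of 5.23 to 5.38, which lie below the 40th percentile (difference -1.78, limma adjusted p = 0.00634). It passed the filter only through the endothelial arrays, was not tested under the filter at the 60th percentile and was not called with limma's treat (adjusted p = 0.179).

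Itgb1, the shared beta chain of most matrix receptors, was close to the threshold. It stood at 9.80, 9.60, 9.37 and 10.04 in stroma against 10.75, 10.27 and 10.99, so the groups did not overlap. The difference of -0.97 (SE 0.24, 95% interval -1.53 to -0.41, limma adjusted p = 0.00850) fell just short of the size required. Another of its probe sets differed by -1.10 and was called. It was called as well under both other scalings (-1.29 and -1.40), and Itgb1 as a gene was called when stromal 4 (-1.08) or endothelial 2 (-1.17) was left out. Itgb2l was likewise just under the threshold at -0.95 (limma adjusted p = 0.00261), and was called without stromal 4 (-1.04) or without endothelial 2 (-1.04). Another Itgb2l probe set differed by -1.16 and was called, and the remaining one by -0.41 and was not. Itgb6 and Itgb8 were not tested, with stromal means of 3.98 and 3.33 and endothelial means of 4.62 and 3.45.

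Among the integrin-binding and integrin-like genes no member was called, and neither tested one had an unadjusted p under 0.05 by limma. Itgb1bp1, which encodes ICAP-1, a protein that binds the beta-1 tail and competes with talin, was at 8.10, 8.49, 8.83 and 7.60 in stroma against 6.58, 8.66 and 7.37. The groups overlapped through endothelial 2, and without that array Itgb1bp1 differed by 1.28 and was called (limma adjusted p = 0.0161). Itgb1bp2, or melusin, a muscle protein, differed by -0.22 with both means below the 40th percentile. Itgbl1 and Itgb3bp were not tested.

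The integrin activators held paralogs that went in opposite directions. All 4 tested members were called, 2 each way: kindlin-2 (Fermt2) and talin-2 (Tln2) were higher in stroma, and kindlin-3 (Fermt3) and talin-1 (Tln1) in the endothelial group. Of all genes tested 47.0% were called. Kindlin-2 is the broadly expressed kindlin of adherent cells and kindlin-3 the form of blood cells. Fermt2 was at 12.38, 12.34, 12.28 and 12.38 on stromal 1 to 4 and at 4.46, 7.50 and 4.94 on endothelial 1 to 3. Its stromal values were nearly equal, and endothelial 2 was the only endothelial array above the low end of the scale. The difference was 6.71 (SE 0.64, limma adjusted p = 5.13e-05), or 7.64 without endothelial 2 and 6.12 without endothelial 1. All 3 of its probe sets were called, from 1.0 to 6.71.

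Fermt3 was at 14.15, 13.76 and 14.02 on endothelial 1 to 3 against 8.32, 7.42, 5.51 and 8.02 in stroma. Every stromal array lay far below, with stromal 3 the lowest. The fold was 101 (SE 0.61 on the log2 scale, limma adjusted p = 4.11e-05), the difference -6.05 without stromal 3, and all 4 probe sets were called, from -7.50 to -2.55. Tln1 was at 13.15, 12.28 and 12.51 against 10.19, 10.12, 9.79 and 10.84, a 5.32-fold difference (limma adjusted p = 2.72e-04). Tln2 was at 10.03, 9.65, 9.35 and 9.18 against 6.23, 6.34 and 6.59, an 8.98-fold difference in the other direction (limma adjusted p = 1.36e-05). Both populations thus had Tln1 well above the low end, while Tln2 on the endothelial arrays was close to it. Of the 3 probe sets of each talin, 2 were called and the third was not.

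The parvins repeated the pattern within the complex that ILK forms with PINCH and parvin, a bridge from the beta tail to actin. All 6 genes were tested, of which 1 was called toward stroma and 4 toward the endothelial side. That is 83.3% called, beside 47.0% of all genes tested. Parva, the broadly expressed alpha-parvin, was at 8.87, 9.28, 9.10 and 10.22 in stroma against 4.02, 4.75 and 5.34. The endothelial values were all below the 40th percentile. The difference was 4.67 (SE 0.40, limma adjusted p = 2.89e-05), and 1.15 for its other probe set, which was called too.

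Parvb, beta-parvin, stood at 13.67, 13.35 and 13.30 on endothelial 1 to 3 against 5.52, 5.71, 5.63 and 7.38 on stromal 1 to 4. The fold was 167 (difference -7.39, SE 0.44, limma adjusted p = 3.71e-06). Stromal 4 was the one stromal array clearly above the low end of the scale for Parvb. Parvg, gamma-parvin of leukocytes, was at 7.40, 8.38 and 7.22 against 6.55, 6.04, 5.70 and 6.29. Its groups did not overlap (2.86-fold, limma adjusted p = 0.00417), and with the hybridisation controls as a block, where endothelial 1 is the only array of its group compared, the difference was -1.25 (adjusted p = 0.0663).

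Ilk and Lims1 differed less than Parva and Parvb. Ilk, the integrin-linked pseudokinase, was at 13.67, 12.90 and 13.07 against 11.24, 11.23, 11.05 and 11.29 in stroma, a 4.04-fold difference (limma adjusted p = 1.16e-04). Lims1, which encodes PINCH-1, was at 13.42, 12.92 and 13.20 against 11.34, 11.61, 11.64 and 10.72, a 3.60-fold difference (limma adjusted p = 5.53e-04). Of the 5 tested probe sets of Lims1, 3 were called, and the others differed by 0.50 and 0.088 and were not called. On the probe sets used, Ilk and Lims1 were strong in both populations and the groups did not overlap. Lims2, PINCH-2, differed by -0.58 (limma adjusted p = 0.0253), under the size required, and was called under the second quantile normalization (-1.12) and cyclic loess (-1.03).

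Among the actin linkers and LIM adaptors 1 of 6 was called toward stroma, 2 toward the endothelial side and 3 neither, a share called near the 47.0% of all genes. Tns3, or tensin-3, which joins the beta tail to actin, was at 13.29, 13.27, 12.99 and 13.65 in stroma against 10.40, 11.41 and 9.81. It was 6.78-fold higher on the stromal arrays (limma adjusted p = 3.36e-04), with both probe sets called. Zyx, zyxin, which recruits actin assembly factors, was at 13.54, 12.86 and 12.92 against 8.35, 8.66, 7.85 and 9.0 in stroma. All endothelial arrays lay above, 25.0-fold by the means (limma adjusted p = 6.29e-06). Vcl, vinculin, which binds talin and actin, was at 13.07, 12.74 and 12.80 against 11.33, 10.96, 11.05 and 11.74, a 3.04-fold difference (limma adjusted p = 5.56e-04).

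Paxillin, tensin-1 and Hic-5 were not called. Pxn had stromal values of 10.32 to 10.50, but 9.84, 11.20 and 8.19 on endothelial 1 to 3, so the endothelial arrays lay on both sides of the stromal ones. Its difference of 0.65 (95% interval -0.71 to 2.01, limma adjusted p = 0.348) became 1.38 and called without endothelial 2 (adjusted p = 0.0161) and -0.13 without endothelial 3. Tns1 differed by 0.67 (limma adjusted p = 0.0337) with 2 of its 3 probe sets called higher on the stromal arrays, and the difference was -0.0040 under the second quantile normalization. Tgfb1i1, the paxillin relative Hic-5, differed by -0.33 (95% interval -0.91 to 0.25).

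**Figure D3:**
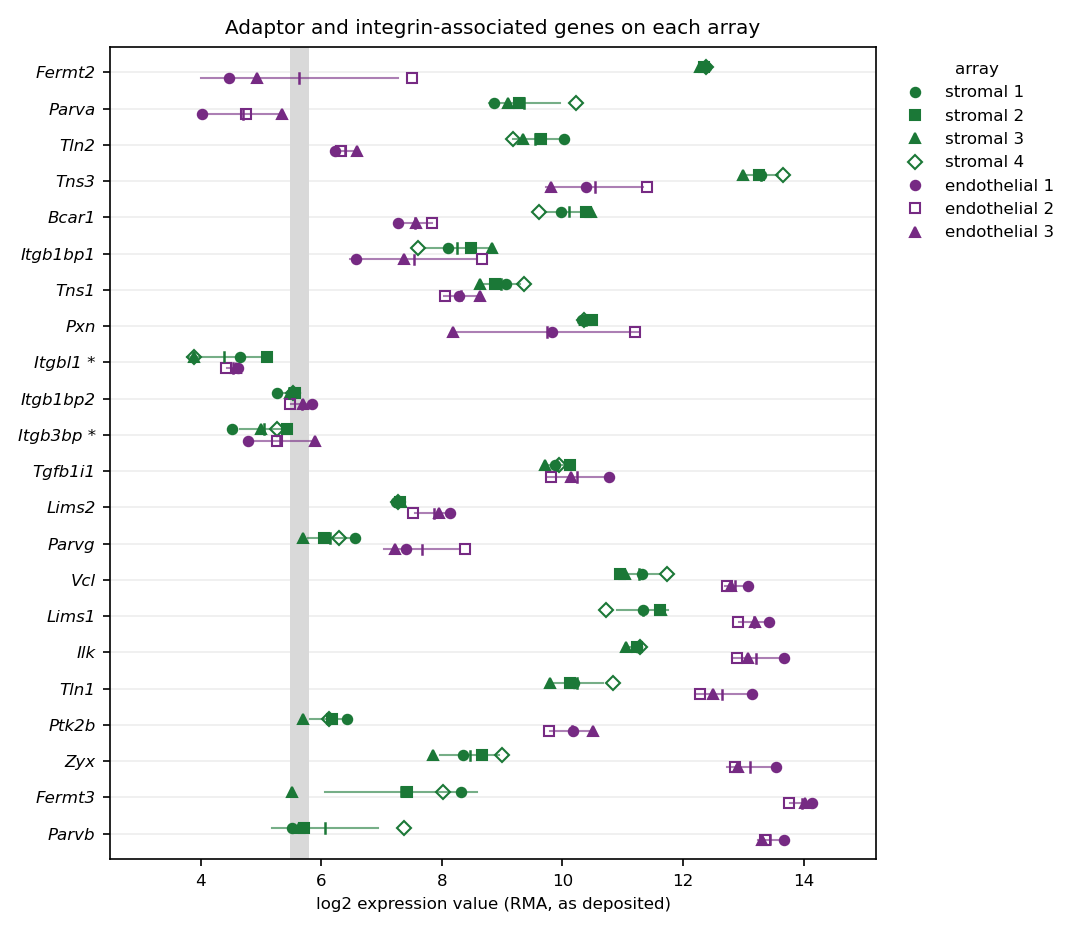
Log2 expression values are plotted on the horizontal axis for each talin, kindlin, adaptor, kinase, scaffold and integrin-binding or integrin-like member. Each array has 1 symbol, with a tick at each group mean and a line of 1 SD to either side. Open symbols mark stromal 4 and endothelial 2, the grey band spans the 40th percentiles of the arrays, and an asterisk marks genes that were not tested. The kindlins Fermt2 and Fermt3 and the parvins Parva and Parvb are placed on opposite sides by the groups.

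Of the members that signal, Bcar1 and Ptk2b went in opposite directions. Bcar1 encodes p130Cas, a scaffold that Src kinases phosphorylate, and Ptk2b encodes PYK2, the focal adhesion kinase relative of blood and nerve cells. Bcar1 was at 9.98, 10.39, 10.47 and 9.61 in stroma against 7.27, 7.83 and 7.57, a 5.87-fold difference (limma adjusted p = 7.54e-05). The groups were well apart on this probe set. Its other probe set differed by 0.59 and was not called (adjusted p = 0.0793 in the fit without cross-hybridising suffixes). Ptk2b was at 10.17, 9.78 and 10.51 against 6.43, 6.17, 5.70 and 6.13 in stroma, a 16.5-fold difference (limma adjusted p = 4.03e-06), with its second probe set at -0.83 and not called.

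Counted by probe set, the 47 members had 108 probe sets, of which 81 were tested. Of these 18 were called toward stroma and 37 toward the endothelial side, against 28.3% and 15.0% (43.3% in all) of the 24519 probe sets tested on the array. Among the 25 members with several tested probe sets none had probe sets called in both directions. In 10 of them all tested probe sets were called one way, in 13 some were, and in 2 none was.

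The arrays of a group did not vary alike. Stromal 4 lay over 1 above the mean of the other stromal arrays in 6 of the 40 members, Itga2b, Itga6, Itga8, Itgb2, Parva and Parvb. For Itgb2 stromal 2 did so as well, and stromal 4 at 7.12 was near stromal 1 and 2 at 6.60 and 6.91, with stromal 3 at 3.95. The platelet marker list averaged 8.11 on stromal 4 and 5.66 to 6.43 on the other stromal arrays. The part of platelet RNA in these 6 differences was not tested. Stromal 3 lay over 1 below its group in Fermt3, Itga2b, Itga4, Itga8 and Itgb2, and had the lowest pan-leukocyte average, 6.13 against 6.70 to 7.67. Endothelial 3 lay over 1 below its group in Fermt2, Itga4, Pxn and Tns3, and endothelial 1 in Fermt2, Itgb1bp1 and Parva. Itgb4 was over 1 above the group on endothelial 1 and over 1 below it on endothelial 2. Endothelial 2 lay over 1 above its group in 7 members, Fermt2, Itga4, Itgb1bp1, Itgb7, Parvg, Pxn and Tns3. On that array the B-lineage list averaged 9.17 against 7.32 and 7.39, the neutrophil precursor list 12.25 against 11.36 and 9.26, and the reticular list 6.53 against 5.29 and 5.95. The 3' minus 5' difference of the control transcripts is a sign of RNA quality. On endothelial 2 it was 3.5 for Gapdh against 2.54 and 2.37 on endothelial 1 and 3, and 1.49 for Actb against 0.65 and 0.96. The stromal arrays had 3.07 to 3.51 for Gapdh and 1.299 to 1.79 for Actb. On this measure endothelial 2 thus lay within the stromal range, and endothelial 1 and 3 lay below every stromal array. The part of the lists and of this measure in the 7 differences was not tested. Nor was the part of this measure in the differences between the groups. In the fit without stromal 4 and endothelial 2 together, 11 members were called toward stroma and 22 toward the endothelial side, including all 29 of the full fit, where 51.5% of all genes (33.5% and 18.0%) were called. The 4 added members were Itgb1, Itgb2l, Itgb1bp1 and Pxn.

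**Figure D4:**
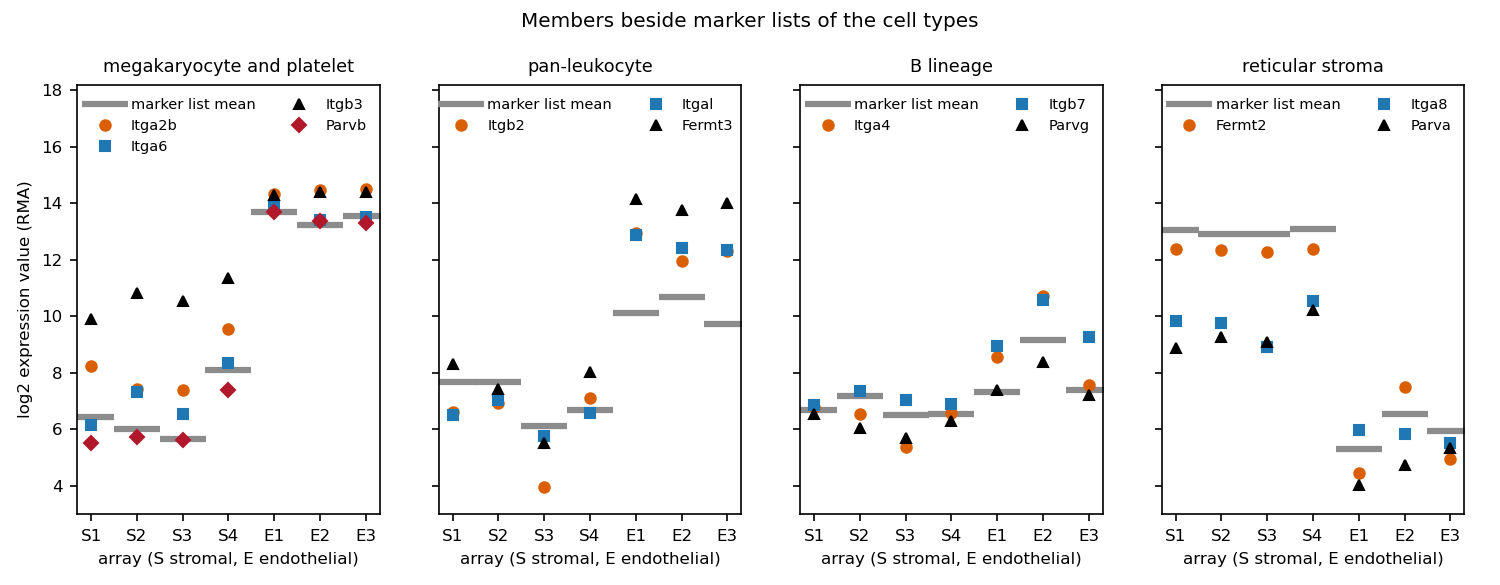
Log2 expression values of chosen members (symbols) are set beside the mean of a cell type's marker list (grey dashes) on the vertical axis for each of the 7 arrays on the horizontal axis. In the megakaryocyte and platelet panel the list mean and Parvb are both highest among the stromal arrays on stromal 4, and in the B-lineage panel Itga4 and Itgb7 are highest on endothelial 2, the array with the highest list mean of 9.17.

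The other genes of the integrin pathway were taken from 4 lists written from general knowledge of adhesions. Of the 20 ligands tested, 14 were called toward stroma and 4 toward the endothelial side, with a median difference of 2.90. The 90.0% called stand beside 47.0% of all genes, 30.9% toward stroma and 16.1% the other way. Ibsp (bone sialoprotein), Tnc (tenascin-C) and Vcam1 (the counter-receptor of alpha-4) were the highest of the stromal side, at differences of 8.31, 8.0 and 7.56 (limma adjusted p = 6.41e-07, 5.95e-05 and 6.49e-05), and the endothelial means of all 3 were below the 40th percentile. Tnc and Vcam1 were at 7.97 and 7.91 on endothelial 2 and at 4.24 to 4.80 on the other endothelial arrays, and without endothelial 2 they differed by 9.15 and 8.67. Icam1, at 5.19, encodes the CD54 of the gate, and Vcam1 is also on the reticular marker list. Vwf, the platelet adhesion protein, Thbs1 (thrombospondin-1) and Tgfb1, whose latent form binds alpha-V integrins, were 165-fold, 10.3-fold and 2.07-fold higher on the endothelial arrays (limma adjusted p = 2.35e-06, 2.79e-04 and 0.0120), and Lama5 was the fourth at 2.04-fold. Tgfb1 lost its call without stromal 2 (-0.92) or endothelial 3 (-0.75), and Lama5 without stromal 1 (-0.90), endothelial 1 (-0.92) or endothelial 3 (-0.92). The fibrinogen chains Fga, Fgb and Fgg, ligands of the platelet receptor, were among the 4 that were not tested. Nephronectin (Npnt), the ligand of the Itga8 chain, was higher on the stromal arrays by 4.63, the side on which Itga8 lay.

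Of 13 tested genes of Rap1 and inside-out activation, 2 were called toward stroma and 5 toward the endothelial side (median -0.93). That is 53.8% called, near the 47.0% of all genes. Fyb, Rasgrp2 and Skap2, which encode a platelet and leukocyte adaptor, the main Rap1 exchange factor of platelets and a partner of Fyb, were 13.3-fold, 12.2-fold and 7.10-fold higher on the endothelial arrays (limma adjusted p = 2.13e-06, 1.22e-05 and 4.88e-05). Raph1, lamellipodin, and Rapgef1, a Rap1 exchange factor of adherent cells, were 6.96-fold and 2.99-fold higher on the stromal arrays (limma adjusted p = 2.97e-04 and 4.26e-04). Rap1a was 4.91-fold higher on the endothelial arrays (limma adjusted p = 5.03e-05), whereas Rap1b differed by -0.95 and was not called.

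Of the 21 Src family, Crk and p130Cas partners, 2 were called toward stroma and 10 toward the endothelial side (median -0.53). That is 57.1% called, near the 47.0% of all genes, of which 30.9% were toward stroma and 16.1% toward the endothelial side. Syk, Fyn and Ptpn11, kinases and a phosphatase that act below integrins and immune receptors, were 28.5-fold, 11.1-fold and 8.14-fold higher on the endothelial arrays (limma adjusted p = 5.56e-07, 3.85e-05 and 3.13e-05). Yes1 was higher on the stromal arrays by 3.53 (limma adjusted p = 9.38e-06) and Dock1, an exchange factor for Rac that works with p130Cas, by 2.33-fold (limma adjusted p = 0.0136), but without endothelial 2 Dock1 differed by 0.95 and was not called. Src itself was 3.26-fold higher on the endothelial arrays (limma adjusted p = 0.00349). Rac2, one of the 10, is also on the pan-leukocyte marker list.

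Of the 24 other focal adhesion proteins, 10 were called toward stroma and 7 toward the endothelial side (median 0.50). That is 70.8% called beside 47.0% of all genes (30.9% and 16.1% in the same order). Arhgap24, a Rac inhibitor bound by filamin, Trip6, a relative of zyxin, and Kank2, which binds talin, were higher on the stromal arrays by 5.35, 4.74 and 4.52 (limma adjusted p = 1.10e-06, 0.00152 and 7.85e-05). Trip6 was at 7.55, 9.19 and 4.94 on endothelial 1 to 3, and its difference was 5.72 without endothelial 2 and 3.59 without endothelial 3. Csrp1, Pdlim7 and Flna, the last encoding filamin A, were 7.90-fold, 6.76-fold and 4.11-fold higher on the endothelial arrays (limma adjusted p = 3.49e-05, 3.58e-05 and 3.46e-04). Rsu1, which binds PINCH-1, was 3.84-fold higher there (limma adjusted p = 4.24e-05), on the same side as Lims1.

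**Figure D5:**
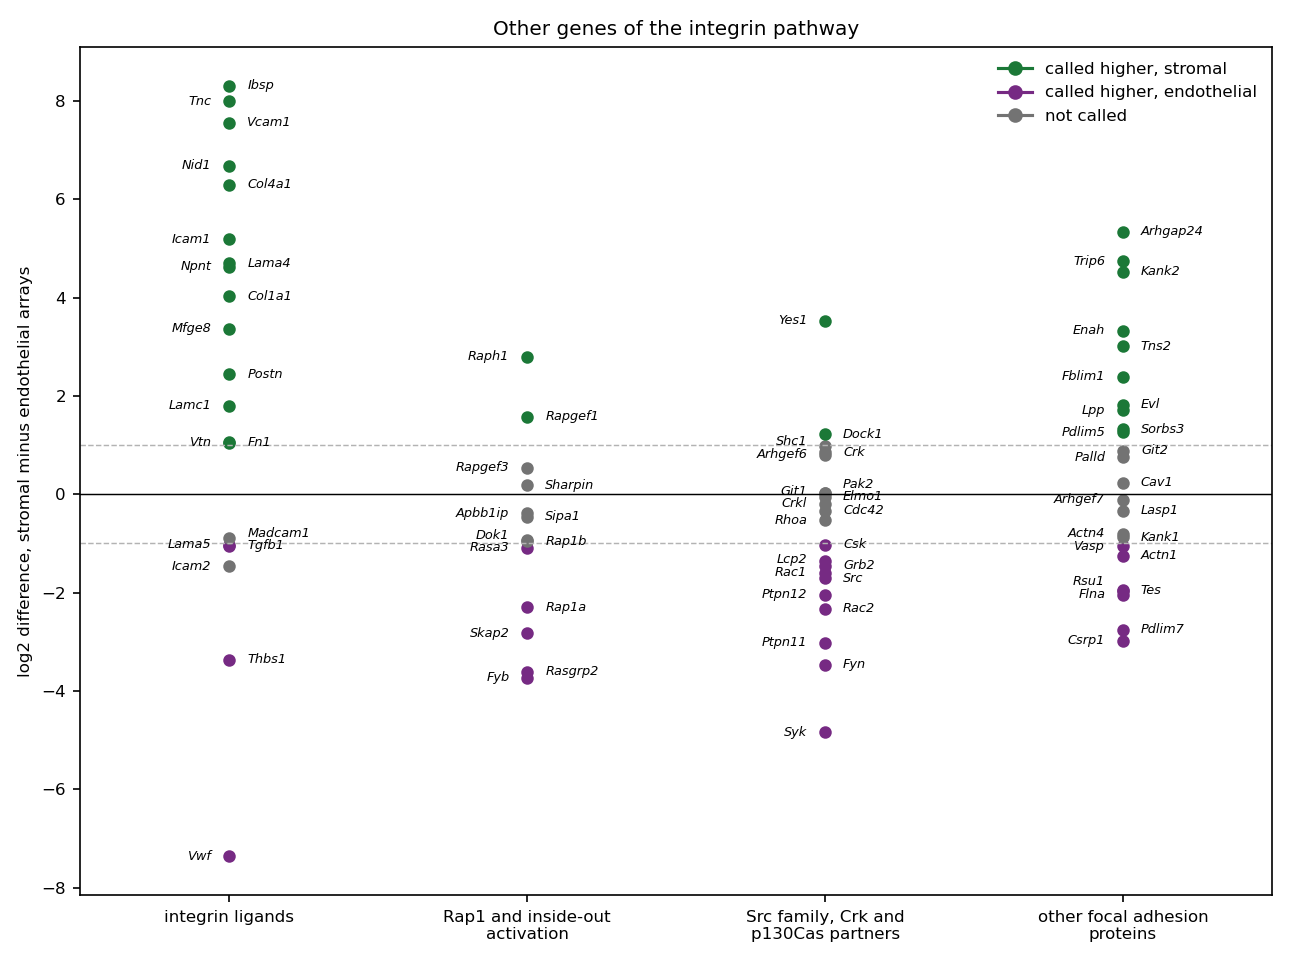
The log2 difference, stromal minus endothelial, is plotted on the vertical axis for each tested gene of 4 lists of other integrin pathway genes, with dashed lines at a difference of 1 in either direction. The ligands run from Vwf at -7.37 to Ibsp at 8.31, and 14 of the 20 tested are called toward the stromal side.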

How the data were processed

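RNA from 7 sorted bone marrow preparations (4 stromal, 3 endothelial) was amplified and hybridised to Affymetrix Mouse Genome 430 2.0 arrays. The authors made the deposited log2 expression values with Affymetrix Expression Console 1.1 and RMA, per the submitters' processing notes. The set of arrays that RMA normalized jointly is not given in the sources used here. No 2 arrays were identical over the table.

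Symbols came from a probe annotation of 2016, and all 47 members matched the RefSeq gene table. Each gene was represented by its single-symbol probe set with the highest mean over the 7 arrays. Genes with at least 3 arrays above their own 40th percentile were tested (13995 of 18193). limma 3.58.1 in R 4.3.3 compared the groups without covariates, and p-values were adjusted by Benjamini-Hochberg over the 13995 genes. Probe sets were tested in the same way. Where an array was left out, probe sets and filter stayed as chosen on all arrays.

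The members, the pathway and marker lists, the naming rule and the alternatives were chosen with earlier results of these data known. Values on every array are given for up to 4 called members per role and direction with groups that do not overlap and for Itgb1, Itgb2, Itgb3, Itga2b, talins and kindlins. Up to 3 genes per pathway list and direction are named in the same way. Further genes were named after their values were seen, as was the count of CG dinucleotides chosen.

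On simulated data for this comparison with 13995 genes, 33, 38, 44 and 50 of 50 genes were recovered at log2 changes of 1.5, 2, 3 and 4. There 7 of 172 calls were of unchanged genes. Far fewer genes were changed in the simulation than the 47.0% called in the data, so these rates need not hold for the data. Stromal and endothelial arrays of the same number correlated by -0.0021, 0.03 and 0.12 in their deviations. Those of unlike number correlated by -0.084 to 0.058. The numbers were not taken to pair arrays, though so few correlations cannot exclude it. Figures were drawn with matplotlib 3.10.9. Protein sequences are not used here.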

Additional observations from a re-analysis of the deposited data

Results flagged for a closer look

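In 2 of the 40 tested members 1 stromal array lay far from the other 3, by Dixon's ratio of the gap to the range of the 4 arrays against its 95% critical value. By chance that value is exceeded in about 1 in 20 groups, which is the share seen here. Itgb2 stood at 3.95 on stromal 3 and at 6.60 to 7.12 on the other stromal arrays (ratio 0.836). Parvb stood at 7.38 on stromal 4 and at 5.52 to 5.71 on the other stromal arrays (ratio 0.895). Groups of 3 were not checked in this way.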

How the results depend on the processing

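Over 20 alternatives the number of members called higher ranged from 7 to 11 on the stromal and from 16 to 24 on the endothelial arrays, while the share of all genes called ran from 15.9% to 37.2% and from 6.11% to 31.5%. Leaving out each array in turn gave 9 to 11 and 20 to 22. For 23 of the 40 members direction and call held under all 20. With replicate number as a block 9 and 22 members were called, which added Itgb1 and Itgb2l and lost none. Whether the numbers pair the arrays is not given by the labels, and the few correlations checked cannot settle it. Calls were lost for Bcar1 (0.59) and Itga9 without the cross-hybridising suffixes, for Itgav with the mean of probe sets, where Itga4 was not tested, for Itgb4 with the filter at the 60th percentile, where it was not tested, for Itga4, Itgb4, Parvg and Vcl with limma's treat, and for Itga4 and Parvg with the hybridisation-control block. Signs changed only in members not called: Itga10 under cyclic loess (0.089), Itga3 with the mean of probe sets (-0.65), a second quantile normalization (-0.17) and cyclic loess (-0.072), Itga5 without the suffixes (0.0029), Itgb1bp2 under a second quantile normalization (0.011) and cyclic loess (0.28), Pxn on leaving out arrays in turn (-0.13 without endothelial 3, up to 1.38 without endothelial 2) and Tns1 under a second quantile normalization (-0.0040). Those 2 scalings moved the median of all genes from 0.19 to -0.12 and -0.03. Stromal-side calls in the Rap1 list fell from 2 to 1 under both, and in the Src, Crk and p130Cas list from 2 to 1 under both and without stromal 4 and endothelial 2. Per probe set, leaving out each array gave 15 to 19 and 33 to 39 member calls. The causes were not tested. Levels near the low end or the top of the scale limit the size of the largest differences.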
